A study of Mus musculus with 3 samples.

Results

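The named small nucleolar RNA (snoRNA) and small Cajal body-specific RNA (scaRNA) genes of mouse were followed through RNA of the chromatin fraction of macrophages. A gene was a member when its symbol began with Snord, Snora or Scarna and a digit and its annotated type was snoRNA or scaRNA. This rule took 149 of 55536 genes, with 146 distinct symbols, since Snora43, Snord80 and Snora16a each stood on 2 genes. Of these, 98 were box C/D genes (Snord), 42 were box H/ACA genes (Snora) and 9 were scaRNA genes (Scarna).

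SnoRNAs are short nuclear RNAs that base-pair with other RNAs and bring a modifying enzyme to a chosen nucleotide. Box C/D RNAs carry the methyltransferase fibrillarin and guide 2′-O-methylation, box H/ACA RNAs carry the pseudouridine synthase dyskerin, and both act mainly on ribosomal RNA in the nucleolus, while scaRNAs act on spliceosomal RNAs in Cajal bodies. In mammals most are cut out of introns of host genes during splicing, so they arise where chromatin-bound transcripts are processed. The roles named for single members are known mainly from their human counterparts.

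The macrophages had been grown from bone marrow of C57BL/6J mice as primary cells. All had received Lipid A, the lipopolysaccharide anchor that is sensed through TLR4: a first dose of 100 ng/ml lasted 12 h, a washout of 12 h followed, and a second dose of 100 ng/ml lasted 20 min. The design had this 1 group with 3 libraries, labelled biological replicates 1, 2 and 3, so no effect of the treatment can be read and no test between groups was made. The labels give all 3 the same donor entry, with sex and age not recorded, so the spread between them may be technical. Starting RNA was 1000, 250 and 500 ng for replicates 1, 2 and 3, and the labels give a size range of 250 to 400. Chromatin RNA was depleted of ribosomal RNA before sequencing.

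Gene counts per library were 13610730, 24105295 and 16517030 for replicates 1, 2 and 3 in the gene table. A gene at 0 counts could therefore have up to 3 counts, which is 0.220, 0.124 and 0.182 CPM, the count scaled to a library total of 1e6. All 7 macrophage markers, among them Adgre1 and Csf1r, had at least 10 counts in every library, and their summed level was 717 to 871 TPM, a level scaled for length that sums to 1e6 in a library. Of 7 markers of other marrow cells only Pecam1 did, the summed level was 1.98 to 3.42 TPM, and the red cell gene Hbb-bs and the mast cell gene Cpa3 were listed at 0.

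The sequences of 7 members are shown because the results below turn on them. They are GENCODE M21 transcripts on mm10, 5′ to 3′ with T for U. Capitals in Snord genes mark matches to the C box letters TGATGA in the first 20 nt and the D box letters CTGA in the last 15 nt. A match of letters need not be the working box. Capitals in Snora genes mark the ACA that lies 3 nt from the 3′ end. Snora26 (chr5:74093530-74093650, plus strand, inside an exon of Dancr) and Snord22 (chr19:8725866-8725991, plus strand, inside an exon of Snhg1) had many counts but a TPM of 0 in some or all libraries.
Snora26: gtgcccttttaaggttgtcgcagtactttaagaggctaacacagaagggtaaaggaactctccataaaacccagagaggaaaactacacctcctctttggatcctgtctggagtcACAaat
Snord22: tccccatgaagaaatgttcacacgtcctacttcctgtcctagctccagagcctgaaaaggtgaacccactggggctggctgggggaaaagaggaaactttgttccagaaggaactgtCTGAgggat
Snord15a (chr7:99482785-99482932, minus strand, in an intron of Rps3) and Snord15b (chr7:99479563-99479707, minus strand, inside an exon of an Rps3 transcript) are guides for methylation of large-subunit ribosomal RNA, and Snord15b had the highest mean TPM of all members.
Snord15a: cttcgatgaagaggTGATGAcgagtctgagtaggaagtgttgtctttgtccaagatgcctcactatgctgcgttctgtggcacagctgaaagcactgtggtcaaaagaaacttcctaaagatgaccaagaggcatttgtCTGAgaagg
Snord15b: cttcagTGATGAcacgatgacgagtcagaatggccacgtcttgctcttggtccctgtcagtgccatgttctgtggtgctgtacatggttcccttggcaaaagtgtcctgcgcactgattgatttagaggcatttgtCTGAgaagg
Snora73a (chr4:132352775-132352979, minus strand) and Snora73b (chr4:132352322-132352526, minus strand) lie in Snhg3, are needed for processing of small-subunit ribosomal RNA, and are nearly identical copies.
Snora73a: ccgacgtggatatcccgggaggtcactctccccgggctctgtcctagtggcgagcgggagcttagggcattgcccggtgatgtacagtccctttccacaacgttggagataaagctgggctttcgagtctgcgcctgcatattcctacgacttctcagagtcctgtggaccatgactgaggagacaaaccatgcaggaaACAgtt
Snora73b: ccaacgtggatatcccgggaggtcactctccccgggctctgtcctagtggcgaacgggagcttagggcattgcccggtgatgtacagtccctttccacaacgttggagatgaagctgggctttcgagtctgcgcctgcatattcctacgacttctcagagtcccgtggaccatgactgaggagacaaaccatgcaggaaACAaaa
Snord21 (chr5:107904555-107904648, plus strand, inside an exon of an Rpl5 transcript) had the most counts among the members that were at 0 in the gene table.
Snord21: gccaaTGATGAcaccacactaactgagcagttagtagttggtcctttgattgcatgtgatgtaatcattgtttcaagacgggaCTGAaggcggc
Snora73a and Snora73b matched at 198 of 205 aligned positions (96.6%), so reads had to be split between near-identical copies. The SD deposited with each count was 1.26 to 1.88 counts for Snora73a and 1.2 to 1.95 counts for Snora73b. Whether the split was right was not tested. Snord15a and Snord15b matched at 107 of 162 aligned positions (66.0%).

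The box letters followed the classes. TGATGA stood in the first 20 nt of 70 of 98 Snord genes (71.4%) and in 0.471% of 139962 transcripts of other types of at least 60 nt. CTGA stood in the last 15 nt of 92 Snord genes (93.9%) and in 6.85% of the other transcripts. ACA lay 3 nt from the end in 35 of 42 Snora genes (83.3%) and in 2.26% of the other transcripts. Of the 9 Scarna genes, 4 held both the C and the D box letters and 2 held the ACA. Only the transcript strand was searched. Snord22 held the D box letters but no TGATGA in its window.

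A few long members held most of the reads. With a threshold of at least 10 expected counts in every library, 13 of 149 members were covered in the gene table, which is 4 Snord, 5 Snora and 4 Scarna genes, and the share over all genes was 26.3%. At 0 counts in every library were 111 members, namely 93 Snord, 13 Snora and 5 Scarna genes. The share of all genes at 0 is not given here, so this number cannot be called particular to the members. Members took 0.159% of gene counts in replicate 1, 0.282% in replicate 2 and 0.145% in replicate 3, a mean of 0.195%. The 95% Wilson intervals of these shares were 0.156 to 0.161%, 0.280 to 0.285% and 0.144 to 0.147%, which cover counting error only. In such bulk RNA, fewer cells with an RNA and less of it per cell cannot be told apart. The 5 members with the highest mean count held 82.3, 82.0 and 82.8% of member counts in replicates 1, 2 and 3.

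Scarna10, which guides modification of the spliceosomal U5 RNA and lies partly in an exon of Ncapd2, had the most counts by far. Its expected counts were 12555, 26492 and 13327 in replicates 1, 2 and 3, or 943 ± 147 CPM (SD, n = 3). This single gene held 58.2, 38.9 and 55.5% of member counts in the same libraries. Without it, the mean share of members fell to 0.101% of gene counts. Scarna2, a guide for the spliceosomal U2 RNA with no host gene, had 1642, 12963 and 3047 counts, and replicate 2 stood far above the others. Scarna13, in an intron of Snhg10, and Scarna6, in an intron of Atg16l1, had 547, 1901 and 649 counts and 354, 1054 and 446 counts. Replicate 2 was again the highest in CPM for both, at 78.9 CPM for Scarna13 and 43.7 CPM for Scarna6. The other 5 scaRNAs had 0 counts in every library of the gene table.

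Among box C/D genes, 4 were covered. Snord17, a methylation guide in an intron of Snx5, had 1611, 6129 and 1345 counts in replicates 1, 2 and 3. Snord15b had 1648, 3408 and 1530 counts, and Snord15a from the same host had 342, 1264 and 356 counts. Replicate 2 held 254 CPM of Snord17 against 118 and 81.4 CPM in replicates 1 and 3. Snord22, known from Xenopus to act in small-subunit ribosomal RNA processing, had 318, 2251 and 499 counts. The only other box C/D gene above 0 was Snord118, which serves large-subunit ribosomal RNA processing, with 1, 2 and 1 counts.

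Among box H/ACA genes, Snora73b and Snora73a led with 1100, 5216 and 1208 counts and with 859, 5009 and 960 counts. In replicate 2 Snora73b and Snora73a had 216 and 208 CPM, and in the other libraries they lay between 58.1 and 80.8 CPM. Snora74a had 508, 1800 and 534 counts, Snora68 had 12.8, 169 and 24.8 counts, and Snora26 had 20.0, 54.0 and 13.0 counts. The next 3 by mean count were Snora81 in Eif4a2, Snora70 in Rpl10 and Snora23 in Ipo7, each below 10 counts in replicate 1 and between 39.6 and 54.2 counts in replicate 2. In all, 24 Snora genes, these 3 among them, were above 0 in some library without being covered.

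**Figure D1:**
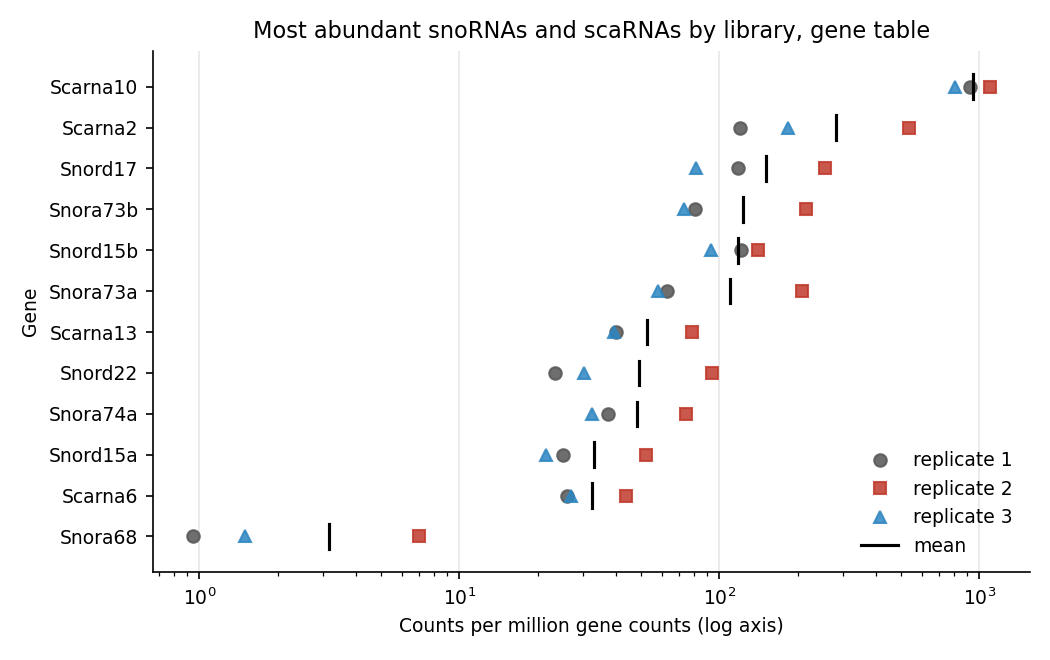
Expected counts scaled to 1e6 gene counts (CPM, log axis) of the 12 members with a mean of at least 50 expected counts, with a symbol for each replicate and a bar for the mean of 3 libraries. Scarna10 stands at 943 CPM on average, and replicate 2 is the highest library for all 12 members.

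Per 100 nt of annotated length, Scarna10 stood highest at 290.1 ± 45.3 CPM, followed by Snord15b at 81.6 ± 16.9, Scarna2 at 67.9 ± 54.3, Snord17 at 63.6 ± 38.2, Snora73b at 60.2 ± 39.3 and Snora73a at 53.5 ± 41.5 (SD, n = 3 each). Neighbours in the order from Snord15b to Snora73a differed by less than their SD. Snord22 came next at 38.9 ± 30.7 CPM per 100 nt, and Snora74a, Snord15a, Scarna13 and Scarna6 lay between 12.2 and 24.6. The median over genes of each class was 0 for Snord, 0.116 for Snora and 0 for Scarna, and the Snora median was 0.0318 without replicate 2.

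The deposited TPM gave another order. Snord15b led with 31307, 38104 and 30909 TPM in replicates 1, 2 and 3, a mean of 33440 ± 4044 TPM, against 9743 ± 642 TPM for Scarna10. TPM divides by the effective length, the number of positions at which a fragment can start, and this was 4.46, 3.43 and 3.47 nt for Snord15b, which is 145 nt long. It was 116, 97.2 and 97.4 nt for Scarna10, which is 325 nt long. Together, Snord15b and Snord22 held 64.1, 36.6 and 65.8% of the summed TPM of members in replicates 1, 2 and 3. Members as a whole took 8.21, 10.4 and 9.93% of all TPM, beside the 0.145 to 0.282% of counts given above. In the gene table, length minus effective length was also taken over genes of a single transcript longer than 1000 nt. Its median there was 222, 246 and 247 nt in the same libraries.

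Both members with enough counts that were listed at 0 TPM lay at the edge of this scale. Snord22, at 126 nt, had 21305 TPM in replicate 1, 0 TPM in replicate 2 and 34491 TPM in replicate 3. Its effective length was 1.26, 0 and 1.01 nt, so the library with the most counts, 2251, was the library listed at 0. Snora26, at 121 nt, had an effective length of 0 and a TPM of 0 in every library. Over all 14599 genes covered in the gene table, these 2 members were the only genes with a TPM of 0 in at least 1 library (0.0137%), and Snora26 was the only gene at 0 in every library (0.00685%). In the second transcript table, Snord22 had 1311, 4080 and 1655 TPM and Snora26 had 64.7, 103 and 43.6 TPM. There their effective lengths were 19.9 to 20.9 nt and 18.4 to 19.3 nt, and replicate 2 was the highest library for both.

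**Figure D2:**
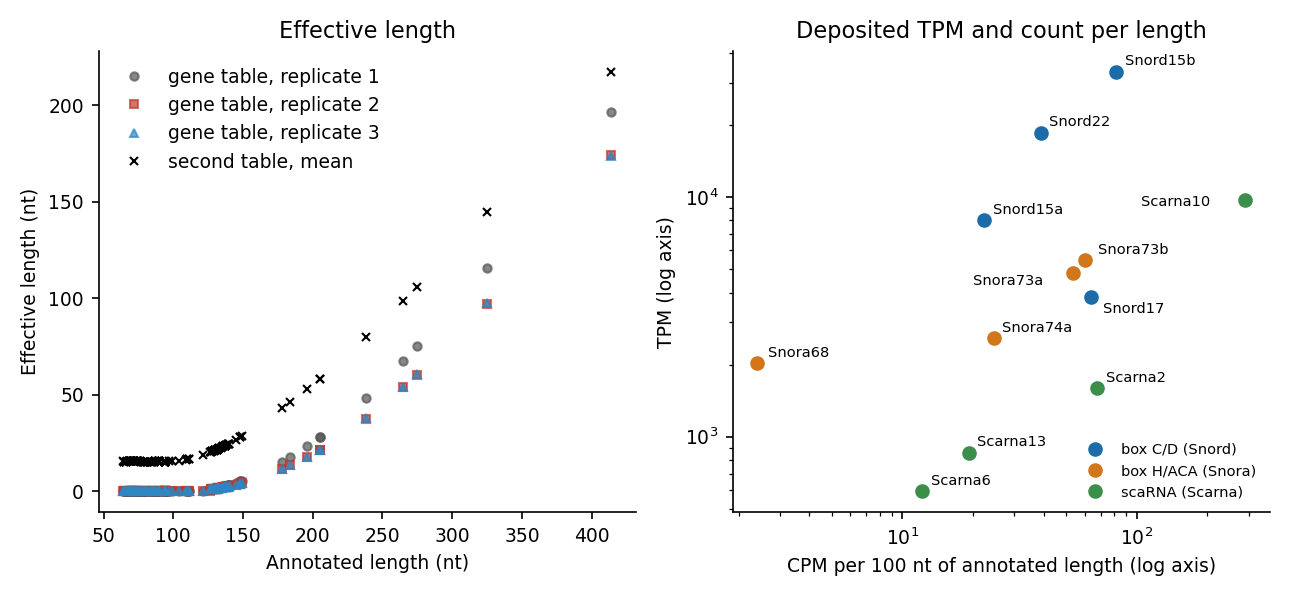
Left, effective length (nt) against annotated length (nt) of the 149 members, with a symbol for each replicate of the gene table and crosses for the mean of the second table. Right, mean TPM against mean CPM per 100 nt (log axes) of the 12 members with a mean of at least 50 counts. Effective length reaches 0 in the gene table near 121 to 126 nt, and Snord15b and Snord22 stand above Scarna10 in TPM but below it in CPM per 100 nt.

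Short members had no counts in the gene table. Of the 95 members shorter than 120 nt, none had a count there, and the shortest member with counts was Snora26. Of the 54 longer members, 16 were also at 0, up to Snora62 at 149 nt. Over all 4314 genes of a single transcript shorter than 120 nt, 9, 11 and 3 had counts in replicates 1, 2 and 3. In the second transcript table, made from the same libraries, 62 members were covered, which is 31 Snord, 23 Snora and 8 Scarna genes, and the share over all genes was 42.5%. By length, 0 of 89 members under 100 nt were covered in the gene table and 25 in the second table, against 0% and 11.4% of all genes of a single transcript of that length. From 125 to 149 nt it was 4 of 43 and 24 of 43 members, against 1.76% and 14.3% of such genes. From 150 nt it was 8 of 10 and 9 of 10 members, against 12.9% and 28.1%. Spearman's rho between length and mean count over the 149 members was 0.676 in the gene table and 0.299 in the second table, given as a description, since members share libraries and depth. The first transcript table gave the same counts and TPM as the gene table for all 149 members.

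**Figure D3:**
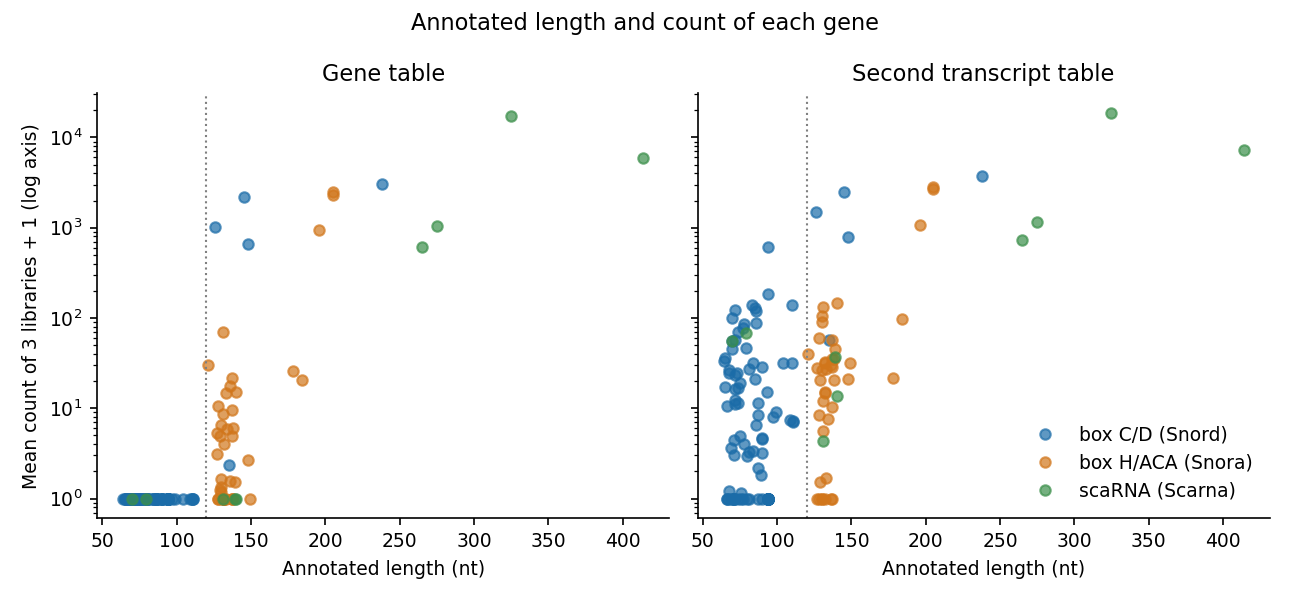
Mean count of 3 libraries plus 1 (log axis) against annotated length (nt) for the 149 members in the gene table (left) and the second transcript table (right), coloured by class. The dotted line marks 120 nt, left of which no member has a count in the gene table.

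For the long members, both tables gave like counts. Scarna10 had 12909, 29067 and 14288 counts in the second table, Scarna2 had 2181, 15641 and 3958, and Snord17 had 1914, 7444 and 1809. Over the 13 members covered in the gene table, the median log2 ratio of the second over the gene table was 0.25, while over all 149 members it was 1.72, both with 1 count added. Spearman's rho between the tables was 0.778 over the 38 members with a count in the gene table. The largest proportional gain among members of 150 nt or more was Snora23, with 78, 142 and 71 counts in the second table and 5, 44 and 9 in the gene table. For 3 Snora genes the reverse held, with at most 3 counts in the gene table and 0 in the second table, and 2 of them carry a symbol that stands on 2 genes.

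The second table showed 35 members that were at 0 in every library of the gene table and had at least 10 counts in every library there, and the share over all 55536 genes was 7.91%. They were 26 Snord, 5 Snora and 4 Scarna genes of 64 to 149 nt. By place, 25 of them lay in introns of their hosts. Whether reads of unspliced host RNA were counted for them was not tested. Snord21, a guide for large-subunit ribosomal RNA in the ribosomal protein gene Rpl5, had 492, 788 and 530 counts in replicates 1, 2 and 3. Snord83b, in an intron of Rpl3, had 53, 393 and 109 counts, and Snord32a, in an intron of Rpl13a, had 54, 246 and 115 counts. Snord89 in Gm15832 had 101, 194 and 117 counts and Snord71 in Ap1g1 had 85, 205 and 99 counts. These 5 were the members with the largest difference between the tables. Replicate 2 held the highest count of each, but it was also the deepest library, and in CPM it was not the highest for Snord21.

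Other members of the fixed set also had counts in the second table, among them Snord118, Snord13 and Scarna17, which have no host gene. Snord118 had 44, 92 and 31 counts in the second table, and Snord13, which serves small-subunit ribosomal RNA and has no host gene, had 16, 59 and 16 counts. Scarna17, without a host gene, had 49, 102 and 53 counts, and Scarna9, in an intron of Cep295, had 12, 98 and 52 counts. Snord14e had 0, 10.6 and 0 counts, while its neighbours in Hspa8, Snord14d and Snord14c, had 41.5, 263 and 52.4 counts and 26.1, 193 and 41.4 counts. Those neighbours match at 84 of 86 positions and were chosen after their values were seen. Snora65 was at 0 in both tables. Per 100 nt, the class median in the second table was 0.170 CPM for Snord, 0.561 CPM for Snora and 2.76 CPM for Scarna. The order of the 3 classes was the same in every library, with Snord at 0.157, 0.237 and 0.118, Snora at 0.412, 0.826 and 0.336, and Scarna at 2.84, 3.35 and 2.62 CPM per 100 nt in replicates 1, 2 and 3. Median lengths were 84, 132.5 and 140 nt for Snord, Snora and Scarna, and 33, 7 and 0 members were at 0 counts in the second table, so the medians mix level with length and zeros. Over covered members of the gene table Snord was highest at 51.2, with Scarna at 43.5 and Snora at 24.6 CPM per 100 nt.

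**Figure D4:**
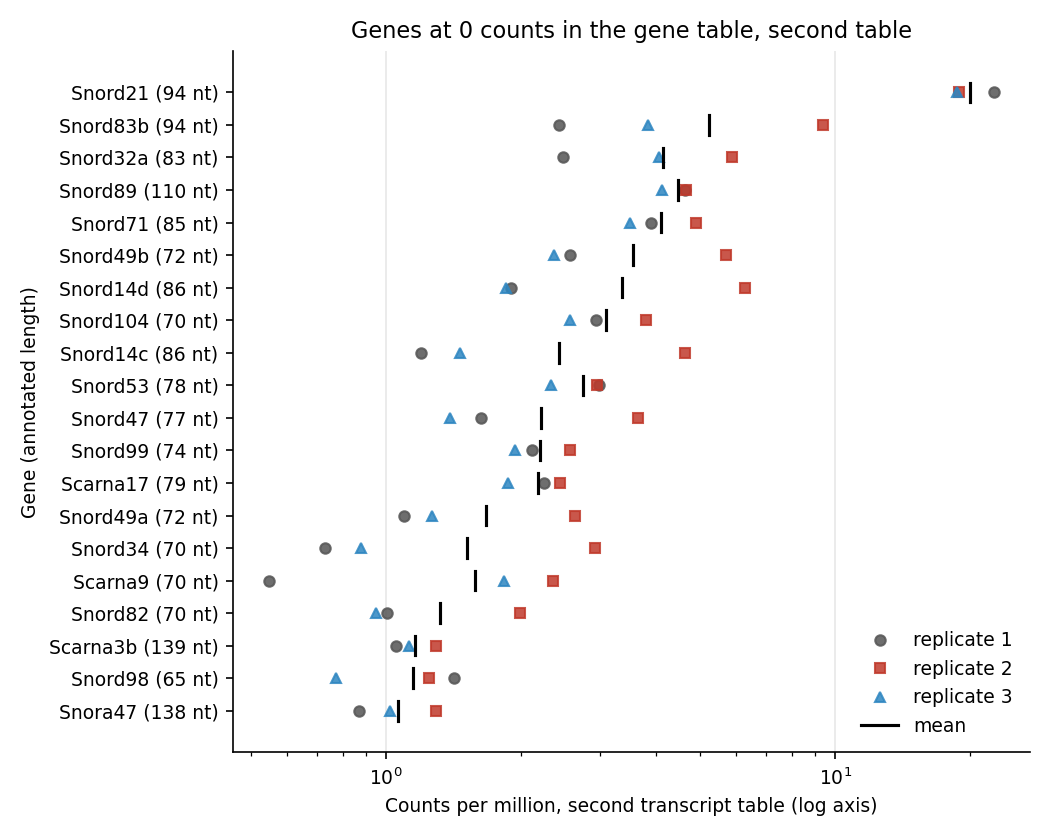
CPM in the second transcript table (log axis) of the 20 members with the highest counts among the 35 that are at 0 in the gene table, with a symbol for each replicate and a bar for the mean. Snord21 lies above the rest in all 3 libraries, and its replicates lie close together, whereas Snord83b and Scarna9 spread widely.

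Replicate 2 stood apart for these genes. In the gene table, 12 members had a mean of at least 50 counts, and all 12 had their highest CPM in replicate 2, against 37.3% of the 11630 genes that passed the same filter. Of the 12, 9 stood at least 2 fold above both other libraries, against 0.447% of all genes. Snora68 passed the filter only through replicate 2. With the mean taken over replicates 1 and 3, a filter chosen after seeing the data, all 11 members left were highest in replicate 2, against 36.1% of genes, and 8 stood at least 2 fold above both others, against 0.26%. The median SD of log2 CPM was 0.77 over the 12 members and 0.20 over all genes. Without replicate 2 it was 0.10 over the members and 0.14 over all genes, so replicates 1 and 3 lay close together. The median log2 ratio of replicate 2 over replicate 1 was 1.15 for members and 0.01 for all genes, and over replicate 3 it was 1.41 and 0.01.

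The size of the difference varied between members. Replicate 2 over replicate 1 was 6.97 fold for Snora68, 4.67 fold for Scarna2, 4.17 fold for Snord22, 3.44 fold for Snora73a and 2.80 fold for Snora73b, the 5 members with the largest SD; Snora68 is the one that the high library brought past the filter. Over replicate 3 the same members stood 4.39, 2.92, 3.09, 3.57 and 2.96 fold higher. At the other end, the ratio to replicate 1 was 1.25 for Scarna10, 1.22 for Snord15b and 1.76 for Scarna6. Scarna10 and Snord15b were also the members with the highest counts per length. Snord15a stood 2.18 fold higher than in replicate 1, although it shares the host of Snord15b.

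The second table gave a like picture over more genes. Of 35 members with a mean of at least 50 counts, 33 were highest in replicate 2, against 36.3% of 19086 genes, and 17 stood at least 2 fold above both other libraries, against 0.346% of genes. Of the 35, 9 passed only through replicate 2, among them Snord34, Snord14c and Scarna9. With the mean taken over replicates 1 and 3, 24 of 26 members were highest in replicate 2, against 35.0% of genes, and 11 stood at least 2 fold above both others, against 0.209%. Before that change of filter, SD values on the log2 CPM scale had a median of 0.67 for the 35 members and 0.19 for the 19086 genes. The 9 members that passed only through replicate 2 are among those 35. Some short members did not follow. Snord21 had an SD of 0.10 and Snord89 an SD of 0.09 on the log2 scale, while Snord34, Snord14c and Snord83b had 1.07, 1.06 and 1.02. Scarna9 had 1.10, with replicate 2 only 1.28 fold above replicate 3 and replicate 3 at 3.27 fold of replicate 1.

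Replicate 2 had the lowest amount of starting RNA and the most counts, and with a single library at each amount, starting amount, depth and replicate cannot be told apart. Other structured RNAs, chosen after their values were seen, did not move together. Rmrp, the RNA of the ribonuclease MRP that cuts ribosomal RNA precursors, was 9.82 fold higher in replicate 2 than in replicate 1 and 2.74 fold higher than in replicate 3. The box C/D RNA Rnu3a was 3.41 and 3.84 fold higher. Rn7sk was at 0.44 and 0.36 and Rpph1 at 0.59 and 0.59 of the levels in the other libraries, and Malat1 at 1.04 and 0.92.

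Host genes lay closer to each other in the 3 libraries. Of the 12 members with a mean of at least 50 counts, 11 had a host, and 9 of these 11 stood further above both other libraries in replicate 2 than their host did. For 3 of them, Scarna13, Snora73a and Snora73b, the host itself was below a mean of 50 counts, and Snhg10, the host of Scarna13, had 2, 2 and 1 counts. Among the 8 members whose host passed the filter, it was 6. Some members, such as Snora73a, Snora73b and Snora74a, lay in 2 genes, and only the one taken as host was compared. Snhg1, the host of Snord22, was 1.34 and 1.5 fold higher in replicate 2 than in replicates 1 and 3, and Snx5, the host of Snord17, was 1.30 and 1.07 fold higher. Scarna10 and Snord15b were the exceptions, with hosts Ncapd2 at 2.32 and 1.88 fold and Rps3 at 1.76 and 1.89 fold.

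**Figure D5:**
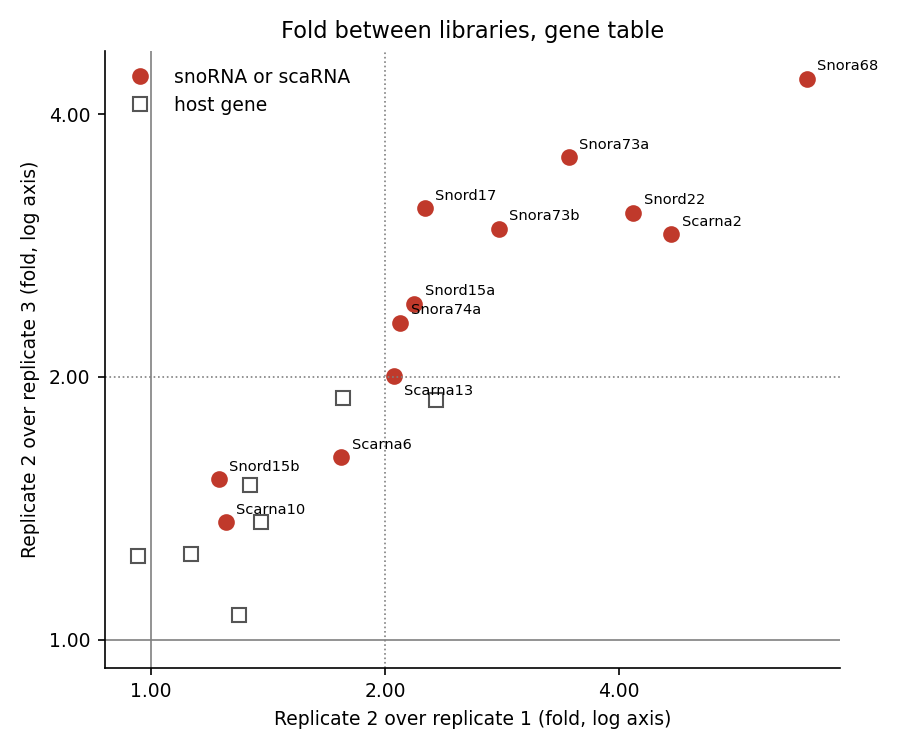
Fold of replicate 2 over replicate 3 against fold of replicate 2 over replicate 1 (log axes) for the 12 members with a mean of at least 50 counts (filled) and for the 7 host genes that pass the same filter (open squares). Solid lines mark equal levels and dotted lines 2 fold; 9 members lie at or beyond 2 fold on both axes, while no host gene does.

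Most members lay inside other genes. A host, taken as a gene on the same strand whose body holds the whole member, was found for 140 members in 90 host genes. Where more than 1 gene held a member, the one with the shortest span was taken, protein-coding or noncoding types first. Snora73a, Snora73b and Snora74a, for example, lay in 2 genes each. The host was protein-coding for 88 members and noncoding for 52, and 32 members lay in 24 ribosomal protein genes. By place, 75 lay in an intron of every host transcript, 56 inside an exon of some host transcript and 9 partly in an exon. The 9 members without a host were Snord118, Snord13, Snord104, Scarna2, Scarna17, Snora17, Snora57 and both genes named Snora43, and 8 of the 9 were covered in the second table.

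Member counts were set beside the level of the host. Spearman's rho between member count and host TPM was -0.065 in the gene table and 0.097 in the second table over 140 members, and 0.259 in the second table over the 75 intronic members. Members of the same host share a value, and short and long members are mixed, so these are descriptions. Of the 140, 108 were tied at 0 in the gene table and 39 in the second table. With so many ties, a rho near 0 cannot show whether host level orders the members. Scarna13 had 1032 counts on average in a host at 0.437 ± 0.147 TPM, and Snora73a and Snora73b had 2276 and 2508 counts in a host at 5.40 ± 0.989 TPM. Snora73a and Snora73b also lie in another gene, whose level is not given here. Eif4a2 was at 376 ± 12.4 TPM, the highest host of a member named here, and its Snora81 had 8.66, 54.2 and 11.6 counts while its Snord2 was at 0 in both tables. Gas5, a noncoding host at 180.8 ± 14.5 TPM, held Snord47 with 35.5, 152 and 39.3 counts in the second table, and its Snord78 was at 0. Snord47, Snord78 and Snord2 were chosen after their values were seen.

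Short members were also counted by place in the second table. Of 53 intronic members under 125 nt, 19 were covered and 19 were at 0, with a median of 7.33 counts. Of those at 0, 17 belong to the Snord116 family, and the 36 others had a median of 23.3 counts. Among those under 125 nt that overlap an exon, 7 of 40 were covered, with a median of 2.25 counts, and 14 were at 0. Where a member lies inside an annotated exon, a read within it also belongs to the host transcript, and how these reads were divided was not tested. Whether reads of unspliced host RNA were counted for intronic members was not tested either.

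At 0 in every library of both tables were 37 members, 33 Snord and 4 Snora genes. The share of all genes at 0 in both is not given here, so this number cannot be called particular to the members. The Snord116 family, an imprinted cluster of near-identical box C/D RNAs in the region deleted in human Prader-Willi syndrome and known for expression in neurons, gave 17 of them. Its 17 genes held 4 distinct sequences, and the lowest identity between copies was 94.7%. Their annotated host Snhg14 was at 19.0 ± 2.53 TPM in the same libraries. Of the other 20, 17 lay inside an exon of a host transcript and 3 in introns. The intronic ones were Snora35 in the neuronal gene Htr2c, Snord123 in Snhg18 and Snord4a in Rpl23a. Htr2c and Snhg18 were themselves listed at 0, while Rpl23a was at 6.72 ± 2.05 TPM. No named gene of the Snord113, Snord114 and Snord115 families was among the members.

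The listed genes for proteins that these RNAs assemble with all had RNA counts. Protein was not measured. The genes of the 4 box C/D core proteins were covered, with Nop56 at 33.6 ± 5.82 TPM, Nop58 at 17.0 ± 5.09, the methyltransferase gene Fbl at 11.4 ± 1.24 and Snu13 at 5.99 ± 0.876 (SD, n = 3 each). The genes of the 4 H/ACA core proteins were covered as well, with the pseudouridine synthase gene Dkc1 at 12.5 ± 2.54 TPM, Gar1 at 5.62 ± 1.03, Nhp2 at 3.09 ± 0.811 and Nop10 at 1.37 ± 0.350. All 13 assembly factor genes were covered, at a median of 3.82 TPM. Summed, the box C/D protein genes stood at 63.8, 60.4 and 79.6 TPM and the H/ACA protein genes at 25.2, 17.3 and 25.2 TPM in replicates 1, 2 and 3. In TPM, replicate 2 was the lowest library for both lists. Members were compared between libraries in CPM, so these TPM are not set against them. The 9 noncoding host genes of the fixed list that had a match were covered too, from 1.77 TPM for Dancr to 180.8 TPM for Gas5. Each list can be read against the 26.3% of all genes that were covered.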

How the data were processed

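The members, the gene lists and the rules were chosen with earlier results of these data known. Each library had a gene table, a first transcript table and a second transcript table, on mm10 and annotation M21 per the notes deposited with each library. Per those notes, the gene and first transcript tables derive from transcriptome alignments and the second from read files. Which programs made them is not given in the sources used here. Expected counts, per the file headers, are fractional estimates of reads per gene or transcript that the authors deposited without scaling. TPM, per the file headers, are the authors' levels per effective length. Annotated and effective lengths, per the file headers, are in bases.

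CPM are counts over the sum of the 55536 genes. Entries that are no gene took 2.46, 0.484 and 0.327% of counts in replicates 1, 2 and 3 and stayed out. Log2 CPM used counts rounded to whole numbers, TMM factors of edgeR 4.0.16 and a prior count of 2, where the mean reached 50 counts. The step was tested on simulated data. Members were covered at 10 counts in every library. A count of 0 allows up to 3 counts, and floors and intervals cover counting error only. With 1 group of 3 libraries, no test was run. Hosts and sequences came from GENCODE M21, with global alignments in Biopython 1.88 for identity. DESeq2 1.42.0 size factors were an alternative. The software was Python 3.11.15 (pandas 2.3.3, numpy 2.4.6, matplotlib 3.10.9) and R 4.3.3.

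The named members were the 8 Snord and 8 Snora genes and the 6 Scarna genes with the highest mean count, the 5 highest by TPM, the 5 with the largest difference between tables and the 5 with the largest SD, the 3 shortest and 3 longest covered members, and a fixed set of 15. Only 5 Snord and 4 Scarna genes had a count in the gene table, so the remaining places fell to members at 0 in order of symbol. Others are said to be chosen after their values were seen.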

Additional observations from a re-analysis of the deposited data

How the results depend on the processing

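Among recalculations of the main results, 37 stayed within the spread between libraries or within 1.5 times the count, and 20 moved. For the median SD of log2 CPM, the limit was instead the SD of its own values as each replicate was left out. That limit is wide. Some of the recalculations that stayed could not have moved. Leaving out a replicate cannot shift the mean share of counts by more than the SD between libraries. The Snord and Scarna class medians in the gene table were 0 whichever replicate was left out. The number that stayed is therefore no measure of how firm the results are. The number of covered members was 26 with a minimum of 1 count and 62 in the second transcript table. The number of members listed at 0 TPM in every library despite counts was 0 in the second table. The mean share of gene counts was 0.101% without Scarna10, an alternative chosen after seeing the data. Per 100 nt, the class medians became 0.170, 0.561 and 2.76 CPM for Snord, Snora and Scarna in the second table, and 51.2, 24.6 and 43.5 CPM over covered members. Per 100 nt of effective length they were 579.9, 6.53 and 56.5 CPM over the 4, 41 and 7 members above 0 nt. Leaving out each replicate, the Snora median ranged from 0.0318 to 0.113 CPM, and the median SD of log2 CPM from 0.10 to 1.00, the lowest without replicate 2. That SD was 0 with no filter on low counts, since most members are at 0. The median log2 ratio of the second over the gene table was 0.47 with 10 counts added and 0.25 over covered members. Spearman's rho with the host was -0.126 with hosts in CPM and 0.0974 with second-table counts. Short members cannot be judged from the gene table, where effective length reached 0. No paired analysis was possible because there is 1 group.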
